A study of Mus musculus with 22 samples.

Results

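Smooth muscle cells and pericytes were selected by their transcripts from the 11 single-cell libraries of hashtagged solid tissue. A cell barcode was a member if it held at least 200 detected genes, at most 25% mitochondrial UMIs (unique molecular identifiers, each standing for 1 captured transcript), at least 1 UMI of at least 3 of the 8 marker genes Acta2, Tagln, Myh11, Rgs5, Cnn1, Pdgfrb, Notch3 and Cspg4, and 0 UMIs of Ptprc (leukocytes), Pecam1 (endothelium), Epcam (epithelium) and Pi16 (fibroblasts of vessel sheaths). Of 179929 barcodes in all 22 libraries, 93055 were tissue barcodes that passed the filters on genes and mitochondrial UMIs, and 507 of these were members. Because these measured values chose the members, the levels of the 8 markers, the 4 excluded genes and the split by Rgs5 and Myh11 are given as a description. No result below rests on a test of them. The markers stayed among the measures screened for outlying libraries, where any mark on them is a description too.

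The study asked what loss of Nalcn, which encodes a sodium leak channel, does in tissues without tumours. Each tissue library pooled kidney, liver, lung and stomach with epididymis from a male mouse or with uterus from a female mouse, at 551 to 654 days of age. All mice, controls included, carried Prom1-CreERT2, a Cre recombinase switched on by tamoxifen under the Prom1 promoter, and Rosa26ZSG, a ZsGreen lineage tag, on a mixed background. Deletion is therefore limited to cells in which that promoter was active when tamoxifen was given, and to their descendants. A group name describes the mouse, not each cell. At what age each of these mice was given tamoxifen was not stated. The 5 libraries labelled wt held no altered Nalcn allele: replicates 1 and 2 were male and 571 days old, replicate 3 was male and 608 days old, and replicates 4 and 5 were female, 611 and 654 days old. Both libraries labelled het (Nalcn-het) came from males of 551 days, so that genotype and age cannot be told apart for them. The libraries labelled null (Nalcn-null) were replicate 2, male and 552 days old, and replicate 3, female and 611 days old, whose group rests on the strain label alone. Another 2 libraries, of 610 days (male, titled replicate 3) and 647 days (female, titled replicate 1), had titles that disagreed with their strain labels, were left unassigned and entered no comparison of genotypes. Hashtag antibodies marked the organs at loading, but those tags were left out of the analysis, and the organ of a member is therefore unknown. Whether libraries of the same age and sex came from 1 mouse was not stated, and p-values then measure only the spread between libraries.

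Smooth muscle cells wrap arteries, veins, airways and hollow organs and shorten when calcium triggers phosphorylation of the myosin light chain, so that their cytoplasm is filled with smooth muscle actin, myosin and tropomyosin. Pericytes sit singly on capillaries inside the basement membrane they share with the endothelium, contain less contractile protein, and depend on platelet-derived growth factor and Notch signals from it. Both are called mural cells. In the kidney, cells of the same lineage at the glomerular arteriole make renin.

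Many contractile genes are driven by serum response factor (Srf), which binds the CArG box, together with its partner myocardin (Myocd). RefSeq promoters, taken as 250 bases before to 50 bases after each start on the GRCm38.p6 build, were searched for the strict 10-base form of that box, which reads the same on both strands. Of the 16 contractile genes 13 matched the table, and 1 of the 13 (7.69%) held the box, while of the 17 pericyte genes 13 matched and 1 (7.69%) held it. The same form was found in 535 of all 32851 promoters (1.63%), or in 488 of 27025 genes (1.81%). The holders were Myl9 and Trpc6. Tagln, Myh11, Actg2, Pdgfrb, Higd1b, Cox4i2 and Ndufa4l2 had no entry. The first 200 bases of both windows are shown because Myl9, the regulatory myosin light chain, was the contractile gene outside the rule followed most closely below and Trpc6 is a cation channel of the pericyte list; capitals mark the box. The Myl9 stretch lies at chr2:156775214-156775413 on the plus strand, with the box starting 161 bases before the start, and the Trpc6 stretch at chr9:8543892-8544091 on the plus strand, with the box starting 122 bases before it. A match of letters is a description of the sequence and not a binding site.
Myl9: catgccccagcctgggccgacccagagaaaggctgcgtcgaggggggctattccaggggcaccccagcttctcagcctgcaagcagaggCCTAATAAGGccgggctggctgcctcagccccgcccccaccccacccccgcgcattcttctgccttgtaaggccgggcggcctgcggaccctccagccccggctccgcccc
Trpc6: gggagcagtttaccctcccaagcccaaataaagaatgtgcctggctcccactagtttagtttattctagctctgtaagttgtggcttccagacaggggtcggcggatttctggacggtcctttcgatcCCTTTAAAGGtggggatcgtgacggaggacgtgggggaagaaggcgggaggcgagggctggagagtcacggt

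The libraries held between 8571019 (wt replicate 5) and 139793927 (wt replicate 2) UMIs in all, and the members of a library summed to 31487 (null replicate 2) to 512679 (wt replicate 2) UMIs in the 10 libraries with at least 20 members. Replicates 1 to 5 of wt had 51, 117, 24, 52 and 1 members, the het libraries 43 and 66, the null libraries 27 and 53, and the unassigned libraries 23 (titled replicate 3) and 50 (titled replicate 1). With 1 member, wt replicate 5 entered the shares of cells only. A member held a median of 2231 UMIs and 1166 genes, and the library medians ran from 876 UMIs in null replicate 2 to 6133 in wt replicate 1. No barcode sequence recurred among members of different libraries, 24 members' sequences recurred among other tissue libraries' barcodes, and 1011 of 92039 passing sequences occurred in more than 1 library. Null replicate 3 stood apart before any comparison: it is labelled as a uterus pool, its members held Xist as females do, yet its other passing barcodes held a list of 8 epididymal genes at 29156 CPM (UMIs scaled to the same library total), against 7.86 in wt replicate 4, the other deep uterus pool with a genotype, and 29084 in the epididymis pool of null replicate 2. For the main results that use that library, values without it are therefore given as well. No doublet caller was run, and the 4 excluded genes are the only treatment of doublets.

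The number of markers held describes how far the members lay from the limit of the rule. Of the 507, 86 held exactly 3 of the 8 markers, 72 held 4, 107 held 5, 98 held 6, 114 held 7 and 30 held all 8. Acta2, smooth muscle actin, had at least 1 UMI in 429 members, Tagln (transgelin) in 428, Rgs5, a brake on G-protein signals, in 419, Myh11 (smooth muscle myosin heavy chain) in 388, Notch3 in 367, Cspg4 (NG2) in 273, Pdgfrb in 265 and Cnn1 (calponin) in 138. In CPM of the summed members, Rgs5 stood at 9255, 3989, 4219 and 4313 in wt replicates 1 to 4, at 2254 and 6592 in the het libraries, and at 2954 and 5254 in null. Acta2 stood at 8341, 3310, 2959 and 4322 in wt, at 4438 and 7624 in the het libraries, and at 4192 and 6637 in null. In both genes wt replicate 1 was the highest library, and the genotypes overlapped. Just outside the rule, 253 barcodes held 2 markers and met the other terms, 456 barcodes held at least 3 markers but also an excluded gene (Pecam1 in 277, Ptprc in 214, Pi16 in 80, Epcam in 75), and 38 lay between 25% and 30% mitochondrial UMIs, where 75 members lay between 20% and 25%. The 456 had a median of 6750 UMIs.

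Of the 12 contractile genes that the rule did not use, Myl9, Tpm2, Mylk, Cald1, Tpm1, Csrp1 and Pcp4l1 were each counted in over 50% of members, and Lmod1, Smtn, Des, Synpo2 and Actg2 in fewer. Myl9 stood at 4834, 1779, 2009 and 2258 CPM in wt replicates 1 to 4, at 2402 and 4119 in the het libraries, at 1842 and 3116 in null, and at 2086 and 2280 in the unassigned libraries. Every library was far above the other passing barcodes (14.0 CPM pooled), and wt replicate 1 and het replicate 2 were the highest. To compare cells at equal depth, each cell with at least 1000 UMIs was thinned to 1000 UMIs. Thinning does not remove transcripts freed from broken cells, which can enter any droplet. Members were set beside fibroblasts and B cells, which do not make these proteins (3000 drawn at random from 10942 that were not members). Fibroblasts were passing barcodes with at least 3 of Pdgfra, Dcn, Lum, Dpt, Clec3b and Mfap5, fewer than 3 rule markers and none of the excluded genes. Low shares of contractile genes in fibroblasts are thus partly set by that choice. At that depth Myl9 was found in 70.5% of 448 members (95% exact interval 66.1 to 74.7%), in 0.576% of 2429 B cells and in 3.39% of 766 fibroblasts, with 59 members, 571 B cells and 182 fibroblasts left out as too shallow. Before thinning the share of members was 78.7%, and the median depths were 2231, 1908 and 1700 UMIs. Intervals cover counting error only. Tpm2, a tropomyosin, was in 70.5% of thinned members, 0.576% of B cells and 9.53% of fibroblasts. Mylk, the kinase that phosphorylates Myl9, was in 74.6%, 1.85% and 10.97% of the 3 kinds of cells. Cald1 (caldesmon), which binds actin and tropomyosin, was in 87.3%, 2.88% and 28.6%. Lmod1 (leiomodin), which starts actin filaments, was in 23.9% of members, 0.165% of B cells and 0.261% of fibroblasts. Without thinning, Tpm1 was counted in 444 members, Csrp1 in 302, Pcp4l1 in 280, Smtn in 199, Des (desmin) in 192 and Synpo2 in 144. Actg2, the actin of visceral muscle, was counted in 16 members with 53 UMIs.

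**Figure D1:**
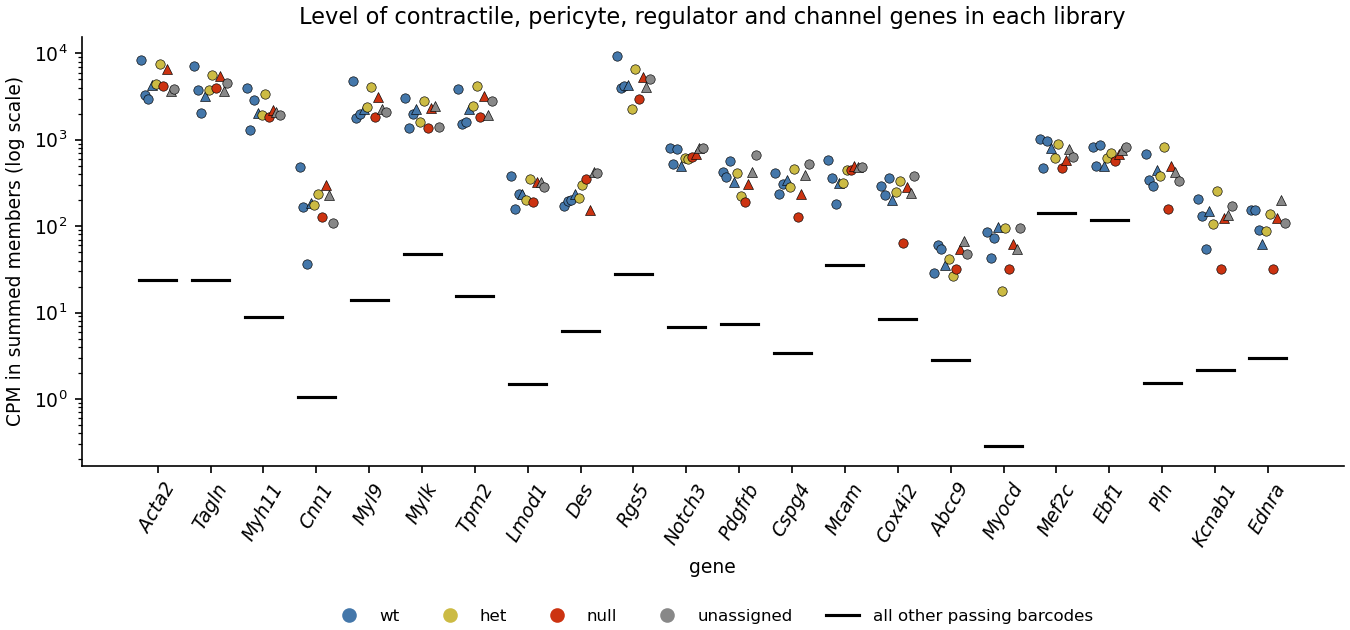
Levels of 22 genes in the summed members of each library with at least 20 members, in CPM on a log axis; circles are epididymis pools, triangles are uterus pools, colours are genotypes and the black line is the pooled level in all other passing tissue barcodes. Myl9 lies between 1779 and 4834 in the 10 libraries against 14.0 in the other barcodes, and Pln between 159 and 826 against 1.55.

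Genes of the pericyte list outside the rule were found in smaller shares of members. Mcam, a surface adhesion molecule of vessels, was counted in 287 members, Gucy1a1 and Gucy1b1, the subunits of the nitric oxide receptor, in 245 and 216, Ndufa4l2 in 225 and Cox4i2, an isoform of a cytochrome oxidase subunit known from the lung, in 222. Cox4i2 ranged from 63.5 to 376 CPM over the 10 libraries with a median of 268, and after thinning it was in 26.1% of members, 0.659% of B cells and 0.131% of fibroblasts. Rgs4 was counted in 157 members, Trpc6 in 87, Higd1b in 72, Postn in 67, Abcc9 in 42, Steap4 in 39, Vtn in 32 and Kcnj8 in 18. The last few included genes usually taken as capillary pericyte markers, such as the potassium channel pair Kcnj8 and Abcc9. Thinned shares of Abcc9 were 4.02% in members and 4.05% in fibroblasts, and those of Steap4 were 3.79% and 12.5%, lower in members.

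Among the regulators, Ebf1 was counted in 367 members, Nr2f2, a nuclear receptor of veins, in 322, Mef2c in 320, Tbx2 in 181, Klf4 in 147, Meis1 in 131, Heyl, a Notch target, in 98, Myocd in 82, Srf in 77 and Foxs1 in 63. Myocd ranged from 17.8 to 97.0 CPM over the 10 libraries, and its thinned share was 6.47% of members (16.2% unthinned) with 0 of the 2429 B cells and 0 of the 766 fibroblasts. Ebf1 and Mef2c were nearly as frequent in B cells, which use both factors: 48.0% against 44.3% and 46.4% against 42.7% after thinning. Klf4 went the other way, with 17.0% of members and 57.2% of fibroblasts. Tcf21 was counted in 29 members, Mrtfa in 42, Mrtfb in 32, Hey1 in 10, Ebf2 in 4 and Tbx18 in 3.

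Genes of calcium handling and of the receptors for vessel-active hormones ranged from most members to a few. Pln (phospholamban), the inhibitor of the calcium pump, stood at 681, 337, 292 and 441 CPM in wt replicates 1 to 4, at 379 and 826 in the het libraries, at 159 and 494 in null, and at 329 and 418 in the unassigned libraries, against 1.55 in the other barcodes. The lowest library was null replicate 2, with 5 UMIs, and the genotypes overlapped. In thinned cells Pln was found in 30.6% of members, 0.206% of B cells and 0% of fibroblasts. Atp2a2, the pump that Pln restrains, was counted in 333 members, the calcium release channel Itpr1 in 257, the chloride channel Ano1 in 175, the gap junction genes Gjc1 and Gja4 in 171 and 117, and the potassium channel subunits Kcnab1 and Kcnmb1 in 164 and 104. Kcnmb1 had a thinned share of 8.48% in members and 0.0412% in B cells. Of the hormone receptors, Ednra (endothelin) was counted in 154 members, Ednrb in 126, Agtr1a (angiotensin II) in 112, Npr3 in 42, Adra2a in 13, Avpr1a in 9 and Oxtr in 3. The L-type calcium channel gene Cacna1c was in 117, Cacna1h in 54, Kcnma1 in 46, Gja5 in 14, Ryr2 in 11 and Ryr3 in 2.

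Nalcn itself was counted with 1 UMI in 1 member and Prom1, whose promoter drives the Cre, with 1 UMI in 1 member. Its partners Unc79 and Unc80 had 0 UMIs in 507 members, which allows a share of cells with a UMI of up to 0.592%. The deletion can therefore not be checked in these cells, and the groups below rest on the labels alone.

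Matrix genes ranged from most members to a few. Sparcl1 was counted in 405 members and ranged from 1164 to 3009 CPM over the 10 libraries (43.8 in the other barcodes). Bgn (biglycan) was counted in 347, Col4a1 and Col4a2, the collagens of the basement membrane, in 276 and 205, Mgp, which blocks calcification, in 246, Col18a1 in 239 and Ogn in 172. Lox, which cross-links collagen and elastin, was counted in 105, Eln (elastin) in 91, Fbn1 in 86, Fbln5 in 26, Tnc in 22 and Mfap4 in 15. Mgp was less frequent than in fibroblasts after thinning (38.4% against 66.2%), and so was Col1a1, the main chain of fibrous collagen (8.71% against 36.2%). Col1a1 stood at 69.0, 2565, 219 and 212 CPM in wt replicates 1 to 4, at 574 and 42.4 in the het libraries, and at 31.8 and 62.9 in null. A single library, wt replicate 2, held 1315 of its 1508 UMIs.

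Among genes counted in at least 200 members, 40 were ranked by the ratio of the members' level to that of the other passing barcodes, with genes of the lists such as Pln, Myl9 and Tpm2 among them; the genes named next are in no list and were chosen after their values were seen. Rergl, a small GTPase relative, was counted in 225 members and stood at 371 CPM against 1.55, and Olfr558, an olfactory receptor, in 210 members at 304 against 1.28. Dgkb, a diacylglycerol kinase, was counted in 247 members at 302 against 1.53, and Mustn1 in 309 at 877 against 7.79. The cyclic nucleotide phosphodiesterase Pde3a was counted in 338 members (66.7%). These ratios describe the same cells that the rule selected.

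Split by Rgs5 and Myh11, 356 members (70.2%, exact interval 66.0 to 74.2%) held both genes, 63 (12.4%, 9.68 to 15.6%) Rgs5 only, 32 (6.31%, 4.36 to 8.79%) Myh11 only and 56 (11.05%, 8.45 to 14.1%) neither. Depth differed between these classes, with median UMIs of 2323, 1655, 1245 and 3306. Both genes together were held by 76.5%, 62.4%, 70.8% and 67.3% of members in wt replicates 1 to 4, 60.5% and 86.4% in the het libraries, and 59.3% and 73.6% in null. Neither gene was held by 9.80%, 18.8%, 0% and 9.62% in wt, 20.9% and 3.03% in the het libraries, and 3.70% and 9.43% in null. Every library with at least 20 members held at least 3 of the 4 classes, and wt replicate 2 and het replicate 1 had the most members with neither. In no library did the Rgs5-only and the Myh11-only class both reach 20 cells, so no genes beyond the lists were named from this split.

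**Figure D2:**
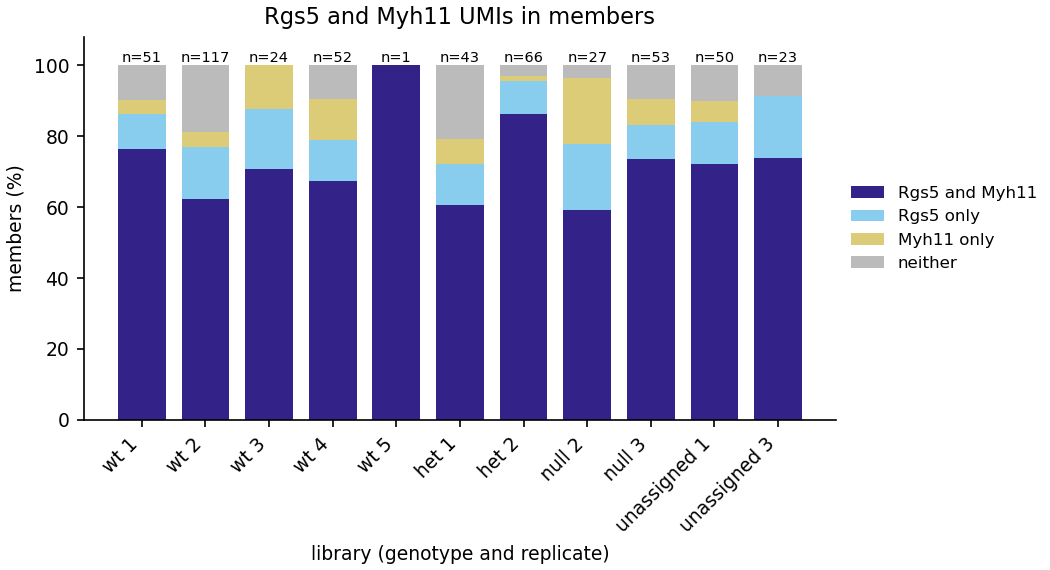
Stacked bars of the percent of members in each library that held UMIs of Rgs5 and Myh11, of one of them or of neither; the number of members is printed for each library. Members with both make up 59.3% to 86.4% of each library with at least 20 members.

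The contractile genes outside the rule did not all follow the classes alike. After thinning to 1000 UMIs, Myl9 was found in 85.0% of the 320 cells with both, 48.1% of the 54 with Rgs5 only, 52.4% of the 21 with Myh11 only and 13.2% of the 53 with neither. Tpm2 was found in 85.9%, 31.5%, 47.6% and 26.4% of these classes, and Pln in 41.9%, 5.56%, 0% and 0%. Des was highest with Myh11 only, at 19.7%, 25.9%, 38.1% and 17.0%, and so was Actg2, at 1.25%, 0%, 19.0% and 5.66%. Of the 82 members with Myocd, 79 held both genes. Pericyte genes outside the rule differed in their pattern over the classes. Abcc9 was in 2.81% of thinned cells with both, 13.0% with Rgs5 only, 4.76% with Myh11 only and 1.89% with neither, Steap4 in 2.81%, 13.0%, 0% and 1.89%, and 10 of the 18 members with Kcnj8 were Rgs5 only. Higd1b, in contrast, was in 4.06%, 9.26%, 23.8% and 11.3%, and Vtn in 2.19%, 3.70%, 9.52% and 3.77%. Among genes of the other lists, Tcf21 was in 13.0% of Rgs5-only cells and 0.625% of cells with both, and the angiotensin receptor gene Agtr1a in 24.1% and 12.8%.

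Members with neither gene, and those with Myh11 only, carried genes of fibroblasts and of the lung. Col1a1 was found in 34.0% of thinned cells with neither and 33.3% of those with Myh11 only, against 2.81% with both and 9.26% with Rgs5 only. Postn, a matrix protein of activated fibroblasts, was found in 37.7%, 38.1%, 2.19% and 7.41% in the same order, and Dcn (decorin) in 43.4%, 14.3%, 1.88% and 14.8%. Tbx5, a transcription factor of lung mesenchyme, was found in 17.0% and 23.8% of these classes and in 0 thinned cells of the other two. Members with neither gene came largely from wt replicate 2 (22) and het replicate 1 (9), and wt replicate 2 held most Col1a1 UMIs. Without these libraries, an alternative chosen after seeing the data, Col1a1 was found in 4 of 23 thinned cells with neither, 5 of 15 with Myh11 only, 5 of 222 with both and 0 of 33 with Rgs5 only. Postn was in 8, 5, 0 and 1 of the same cells, Dcn in 4, 2, 2 and 3, and Tbx5 in 5, 1, 0 and 0. Of the other fibroblast-list genes in those 23 cells, Lum, Dpt and Clec3b were in 0, Mfap5 in 1, Inmt in 2, Pdgfra in 3 and Gsn in 8. Over all libraries these 7 genes were, in the same order, in 7, 4, 7, 6, 3, 7 and 21 of the 53 thinned cells with neither. For the 56 members with neither gene the label of smooth muscle or pericyte thus rests on the remaining rule markers, with Acta2 at 586 CPM against 7456 in members with both.

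**Figure D3:**
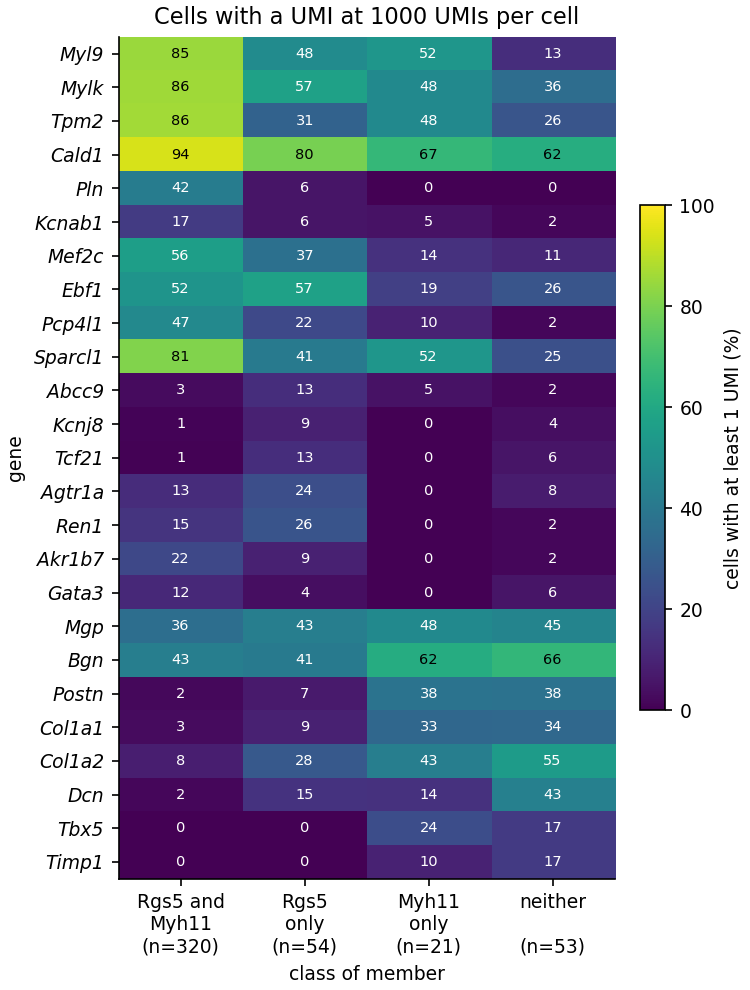
Heat map of the percent of members with at least 1 UMI of each gene, after thinning each cell to 1000 UMIs, in the 4 classes given by Rgs5 and Myh11 (320, 54, 21 and 53 cells). Myl9 falls from 85.0% with both genes to 13.2% with neither, while Col1a1 goes from 2.81% to 34.0%.

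Renin marked a small group among the members. Ren1 (chromosome 1, 133350510 to 133360325, plus strand, GENCODE vM21 on mm10) codes for the enzyme that starts the angiotensin cascade, and 7837 UMIs of it lay in 82 members. Of these, 33 held at least 10 UMIs, a limit set after the values were seen, and together had 97.7% of all Ren1 UMIs, with a median of 51 and a highest value of 1495 in a cell. The other 49 held 1 to 9. The 33 cells came from 9 of the 10 libraries with at least 20 members: 7, 9, 2 and 1 from wt replicates 1 to 4, 2 and 5 from het, 1 and 3 from null, and 0 and 3 from the unassigned libraries. As shares of members these were 13.7%, 7.69%, 8.33% and 1.92% in wt, 4.65% and 7.58% in the het libraries, and 3.70% and 5.66% in null, so that the genotypes overlapped. By class, 27 held both Rgs5 and Myh11 and 6 held Rgs5 only. In thinned cells Ren1 was found in 14.1% of members, 0.247% of B cells and 0.131% of fibroblasts. The near-identical Ren2 is present in some mouse strains and the background was mixed, so reads assigned to Ren1 may include that copy.

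The 33 cells rich in Ren1 were compared with the other 474 members as a description. Their median depth was 2710 UMIs against 2192, and 30 and 418 cells remained after thinning. Akr1b7, an aldo-keto reductase known from renin cells, was found in 53.3% of the thinned rich cells and 12.7% of the others. Mgp was found in 73.3% and 34.0%, Itpr1 in 43.3% and 24.4%, and Col18a1 in 43.3% and 25.6%. Of the contractile list, Acta2 was found in 76.7% and 77.8% and Myl9 in 83.3% and 71.8%, which does not speak for the rest of that list. Hspa1a, a heat shock gene and a sign of stress, was found in 66.7% of rich cells and 34.4% of the others, and its neighbour Hspa1b in 18 of the 30 and 149 of the 418. Klf4 and Ogn were found in 0 of the 30 thinned rich cells and in 20.1% and 19.1% of the others.

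**Figure D4:**
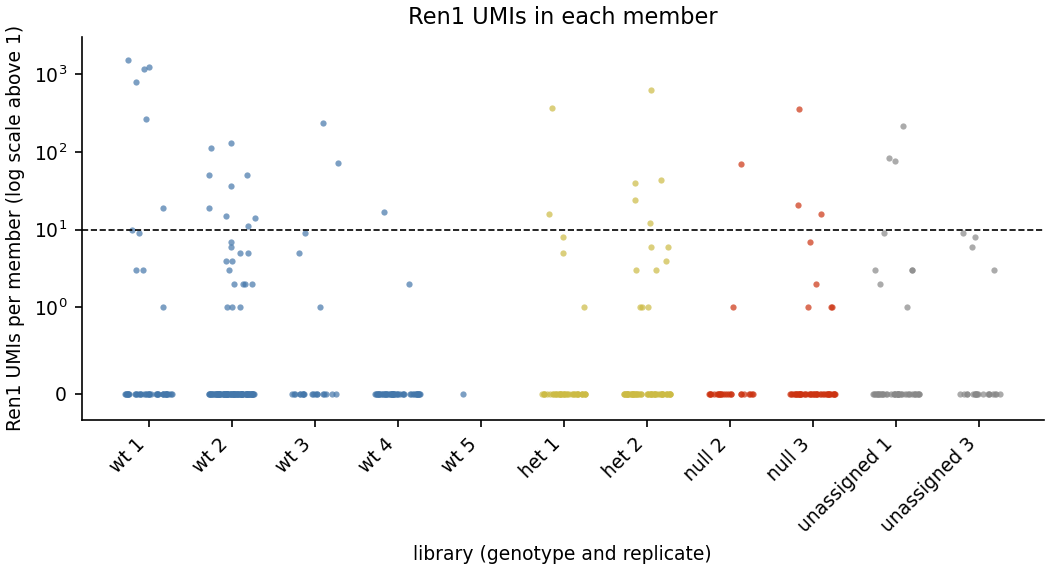
Ren1 UMIs of each member by library, on an axis that is logarithmic above 1 UMI and includes 0, with a dashed line at 10 UMIs. The 33 cells on or above the line reach 1495 UMIs and lie in 9 of the 10 libraries with at least 20 members, and most members lie at 0.

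Genes with a known regional origin were spread over the members. Of the kidney list, Akr1b7 was counted in 129 members, Gata3 in 111, Hoxd8 in 49, Hoxd9 in 36 and Foxd1 in 19, and 120 members held at least 2 genes of the list, Ren1 included. Of the lung list, Npnt (nephronectin) was counted in 109, Foxf1 in 36, Tbx5 in 26 and Tbx4 in 17, and 30 members held at least 2. From the genital tract list Hoxa10 was counted in 69, the estrogen receptor gene Esr1 in 61 and Hoxa9 in 45. From the list of hepatic stellate cells, the pericytes of the liver sinusoid, Ecm1 was counted in 167 and Hgf in 21, but Lrat, which stores vitamin A there, in 6, Colec11 in 5, Hand2 in 3 and Reln in 0. The stomach list was nearly silent: 8 members held any of its genes, with Barx1, Nkx3-2 and Six2 at 0. A gene list does not assign a cell to an organ, and Ecm1 is used in several of these organs.

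Markers of other cell types are given for each list. At least 2 genes of the fibroblast list were held by 68 members (288 held any), and its sum ran from 318 CPM in null replicate 2 to 4976 in het replicate 1. At least 2 endothelial genes were held by 58 (173 held any, 69.0 to 1241 CPM), and at least 2 leukocyte genes by 120 (283 held any, 261 to 2307 CPM). At least 2 epithelial genes were held by 7 (74 held any), at least 2 B cell genes by 11 (45 held any), any mesothelial gene by 28 and any glial gene by 6. Any gene of the alveolar and club list was held by 311 members, of the proximal tubule list by 265, of the red cell list by 255 (52.9 to 16451 CPM), of the epididymal list by 161 and of the hepatocyte list by 133. Of 10953 B cells, which lack a contractile apparatus of this kind, 52 (0.475%, exact interval 0.355 to 0.622%) held at least 3 of the 8 rule markers, against 963 of all 93055 passing barcodes (1.03%, 0.971 to 1.10%) before the excluded genes were applied. Early stress genes were held by 492 members, with Fos at 1187 to 2573 CPM, and genes of dividing cells by 40, of which 6 held at least 2. The part of any of these lists in the comparisons below was not tested except where values are given.

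The first comparison asked how large a share of the passing barcodes the members made up. In percent, the members' share was 0.858, 0.641, 0.428, 0.398 and 0.348 in wt replicates 1 to 5, 0.573 and 1.63 in het, 0.310 and 0.566 in null, and 0.532 and 0.313 in the unassigned libraries. The value of wt replicate 5 is 1 member among 287 passing barcodes, yet it counts as a full library in the means and tests below. Both het and null overlapped wt, and the single high library was het replicate 2. Null averaged 0.438 ± 0.181% (SD, n = 2) and wt 0.535 ± 0.213% (n = 5), a difference of -0.0969 percentage points (exact two-sided permutation test, p = 0.667; the smallest p this design allows is 0.0476). Without null replicate 3 the difference was -0.225, and without null replicate 2 it turned its sign, to 0.0311. Neither design can give an exact permutation p below 0.167. Het averaged 1.10 ± 0.747% (n = 2), 0.567 points above wt (exact permutation p = 0.143), and 0.0385 points above it without het replicate 2. Uterus pools averaged 0.437 ± 0.114% (n = 3) and epididymis pools 0.740 ± 0.475% (n = 6), a difference of -0.303 points (exact permutation p = 0.381), which was -0.367 without null replicate 3 (exact permutation p = 0.393). Without wt replicate 5 the differences were -0.144 points for null, 0.520 for het and -0.258 for uterus pools. How many cells of each type survive dissociation is not known, so these are shares of barcodes and not of tissue.

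**Figure D5:**
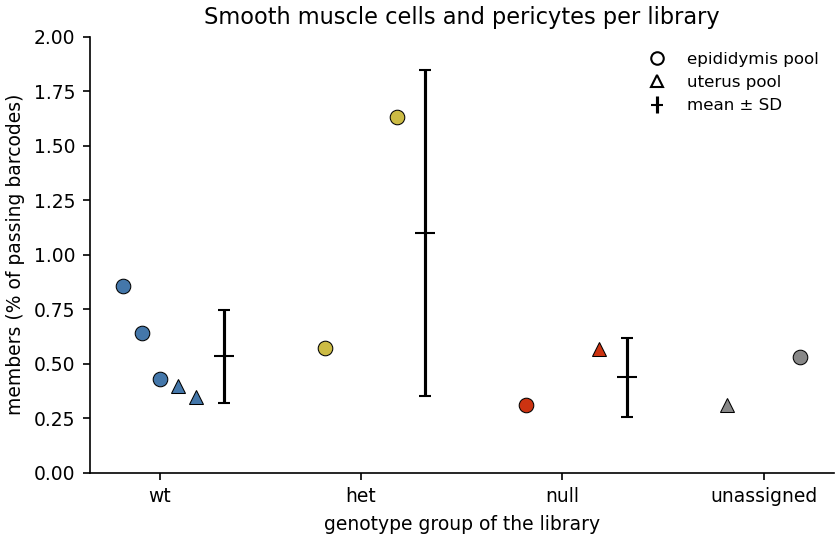
Members as a percent of passing tissue barcodes in each library, by genotype; circles are epididymis pools, triangles are uterus pools, and bars are the mean ± SD of the 5 wt, 2 het and 2 null libraries. The wt libraries lie between 0.348% and 0.858%, the null libraries lie at 0.310% and 0.566%, and the highest value is 1.63% in het replicate 2. The lowest wt value, of wt replicate 5, is 1 member among 287 passing barcodes.

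Among members with exactly 1 of Rgs5 and Myh11, the Rgs5-only share is given as a description, since the rule used both genes. It was 64.0 ± 12.6% in wt (SD, n = 4), 74.1 ± 16.4% in het (n = 2) and 52.8 ± 3.93% in null (n = 2). The difference of null from wt was -11.2 points (-14.0 without null replicate 3), that of het 10.1, and that of the uterus from the epididymis pools -14.6 (-17.3 without null replicate 3). When all barcodes were thinned to 1000 UMIs before the rule was applied, each of these differences turned its sign, to 18.1, -9.40 and 12.0. Depth, the members selected (11 in place of 27 in null replicate 2) and the libraries (wt replicate 5 entered) changed together there, and their parts were not separated.

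The comparison of null with wt asked which genes differ in the members' summed counts between the libraries labelled null and wt. Outside the rule's markers, no gene of the contractile, pericyte, regulator, channel, matrix or TGF-beta list was called, and the 3 called genes, all higher in null, were Spag11b, Lcn2 and Defb20. Spag11b and Defb20 code for antimicrobial proteins made by the epididymis, and Lcn2 codes for a secreted iron-scavenging lipocalin. These 3 were 0.0918% of the 3267 genes tested with edgeR's quasi-likelihood test (4 wt, 2 het and 2 null libraries, organ pool as covariate, Benjamini-Hochberg adjusted p under 0.05), and 107 genes had an unadjusted p under that limit.

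Spag11b (chromosome 8, 19140759 to 19143010, plus strand) stood at 8.62, 5.85, 0 and 0 CPM in wt replicates 1 to 4, at 17.8 and 26.5 in the het libraries, and at 635 and 368 in null. The null libraries did not overlap the others, and their values came from 20 UMIs in 3 cells and 41 UMIs in 17 cells. Its log2 fold change was 6.65 (SE 0.52, adjusted p = 0.00031 by edgeR with Benjamini-Hochberg adjustment). Defb20 (chromosome 2, 152477063 to 152479934, plus strand) stood at 8.62, 9.75, 0 and 0 CPM in wt, 23.7 and 31.8 in the het libraries, and 254 and 566 in null, again without overlap, with 8 UMIs in 3 cells and 63 UMIs in 20 cells. Its log2 fold change was 5.44 (SE 0.64, adjusted p = 0.0056, same test). Lcn2 stood at 5.75, 21.5, 0 and 8.82 CPM in wt, 11.8 and 5.29 in the het libraries, and 1143 and 80.8 in null. The null values rested on 36 UMIs in 3 cells and 9 UMIs in 5 cells. The log2 fold change of Lcn2 was 6.04 (SE 0.65, adjusted p = 0.0036, same test).

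The same 3 genes were also found in the B cells and the other passing barcodes, in null and in other libraries. In B cells Spag11b stood at 1117 and 1454 CPM in null, at 1227 and 38.3 in the het libraries and at 2.30 to 48.0 in wt replicates 1 to 3. Among the other passing barcodes it stood at 6227 and 6260 in null, at 2924 and 5233 in the het libraries and at 83.7 to 1118 in those 3 wt libraries. Defb20 stood in B cells at 1298 and 1439 CPM in null and at 812 and 29.3 in the het libraries. In B cells of wt replicates 1 to 5 it stood at 19.1, 58.9, 2.30, 0 and 0. For Lcn2 the B cells of null had 226 and 235 CPM and those of the het libraries 136 and 177. Those of wt replicates 1 to 5 had 8.76, 78.9, 209, 11.9 and 41.5. Both het libraries held these transcripts in other barcodes. In het members no gene was called. Of the epididymal list 4 genes were tested there, 3 positive and 1 negative (median log2 change 1.22), 2 with an unadjusted p under 0.05 by edgeR. What part other barcodes had in the members' values was not tested. The epididymal list as a whole summed to 1842 and 2021 CPM in the members of the null libraries and to 5055 and 6116 in their B cells, and to 126, 89.7, 183 and 0 in the members of wt replicates 1 to 4 and 130 and 132 in those of het. In het replicate 1 the B cells held that list at 4111 CPM. Without null replicate 2 no gene was called (177 at an unadjusted p under 0.05), and without null replicate 3 the calls were Spag11b, Lcn2 and Clu (clusterin). Members with both Rgs5 and Myh11 numbered 16 in null replicate 2 and 17 in wt replicate 3, under the minimum of members. In a fit of these members null replicate 3 was therefore the only null library, as when null replicate 2 is left out. That fit is no separate check of the calls.

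Genes of smooth muscle and pericytes outside the rule differed between null and wt by little more than their standard errors. Myl9 had a log2 fold change of -0.12 (SE 0.53), Tpm2 of 0.06 (SE 0.50), Mylk of -0.32 (SE 0.45), Pln of -0.55 (SE 0.60), Cox4i2 of -0.46 (SE 0.58) and Gucy1a1 of -0.41 (SE 0.38), and none was called. Of the 12 contractile genes that are not rule markers 11 were tested, 6 with a positive and 5 with a negative change and a median log2 change of 0.00, where the median of all genes tested was -0.05. Of the 13 such pericyte genes 9 were tested, 1 positive and 8 negative, with a median of -0.34. Of 16 regulators 9 were tested (5 positive, 4 negative, median 0.00), and of 26 channels and receptors 13 (5 positive, 8 negative, median -0.32). Without null replicate 3 the median of all genes was -0.32, and the medians were -0.52 for the contractile, -0.84 for the pericyte, -0.53 for the regulator and -0.82 for the channel list, with Myl9 at -0.83 and Pln at -1.67 and no gene of these lists called.

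Most matrix genes tested had negative values in null and none was called. Of 20 matrix genes 18 were tested, 1 positive and 17 negative, with a median log2 change of -0.71. Col1a1 had the value -2.95 with an SE of 1.82, and the library that holds most of its UMIs is wt replicate 2. Without the filter on low counts Col1a1 (-3.17, adjusted p = 0.0032) and Col1a2 (-2.54, adjusted p = 0.031) were called lower by edgeR. Of the fibroblast list, 4 of 5 tested genes were negative with a median of -1.29, and its part in the matrix values was not tested. Of 15 genes of TGF-beta signalling and fibrosis 12 were tested, 4 positive and 8 negative (median -0.17), with Itgav at -2.17 (SE 0.76, adjusted p = 1 by edgeR). Of a list of 10 genes of invasion and epithelial-mesenchymal transition 5 were tested, 1 positive and 4 negative (median -0.59), and none was called. The metalloproteinase genes of that list were sparse in members, with Mmp7 at 0 UMIs, Mmp9 at 52 UMIs in 12 cells, Mmp10 at 33 UMIs in 5 cells of wt replicate 2 and Mmp19 at 21 UMIs in 15 cells. Of the 15 stress genes 12 were positive, with a median of 0.32, and all 5 tested leukocyte genes were positive (median 1.01). Without null replicate 3 the medians were -1.59 for the matrix list, -5.88 for the fibroblast list (8 of 8 tested genes negative), -0.76 for the TGF-beta list, -1.52 for the invasion list, 0.52 for the stress list and 1.58 for the leukocyte list. Null is then replicate 2 alone, with 27 members and 31487 UMIs. Its fibroblast value rests on few UMIs near the floor, and 8 genes of that list were tested in place of 5. Ren1 had a log2 change of 1.08 with an SE of 1.92, and of -1.80 without null replicate 3.

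In the comparison of het with wt no gene was called (0% of 3267; 70 genes at an unadjusted p under 0.05; 0 by DESeq2 as well). Myl9 had a log2 fold change of 0.29 (SE 0.48) and Pln of 0.55 (SE 0.49). Contractile genes outside the rule were positive in 7 of 11 cases with a median of 0.14, pericyte genes in 3 of 9 with a median of -0.26, and matrix genes in 7 of 18 with a median of -0.22, against 0.01 over all genes tested. All 5 leukocyte genes were negative (median -2.34) and all 5 fibroblast genes positive (median 0.61). In the sum of the fibroblast list, het replicate 1 stood apart from the other epididymis pools with a genotype (4976 CPM, next 1709).

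The comparison of uterus with epididymis pools, which is also one of female with male mice, had 1 call (0.0306% of 3267; 93 genes at an unadjusted p under 0.05). Xist (chromosome X, 103460366 to 103483254, minus strand), the RNA that silences an X chromosome in female cells, stood at 2152 CPM in wt replicate 4 and 1446 in null replicate 3, and at 0 in the members of all 6 epididymis pools compared. Pooled, that is 1802 CPM against a limit of 2.30 CPM set by 3 counts, so Xist was at least 784-fold higher in the uterus pools (adjusted p = 0.0049 by edgeR with Benjamini-Hochberg adjustment). DESeq2 did not call Xist (adjusted p = 0.99997). Each library was also left out in turn, and 7 of these fits tested Xist, the one without null replicate 3 among them. There its log2 fold change ran from 11.26 to 11.83. Without wt replicate 4 Xist was not among the genes tested, so that fit says nothing about it. In null replicate 3, 48 of 53 members held Xist. Ddx3y, a gene of the Y chromosome, stood at 0 in both uterus pools and at 172, 138 and 384 CPM in wt replicates 1 to 3, 82.8 and 111 in het and 222 in null replicate 2, at least 11.1-fold higher when pooled, with an adjusted p of 0.13 by edgeR. The members of null replicate 3 thus carried the sex of its label. Myl9 had a log2 change of 0.13 (SE 0.52) between uterus and epididymis pools, Akr1b7 of -1.13 (SE 0.70) and Ren1 of -2.46 (SE 1.91). Contractile genes outside the rule were positive in 8 of 11 cases (median 0.19), pericyte genes in 8 of 9 (median 0.17) and matrix genes in 7 of 18 (median -0.14), against a median of -0.01 over all genes tested, and none was called. Without null replicate 3 these were 4 of 11 (median -0.05), 2 of 11 (median -0.11) and 6 of 18 (median -0.30), against -0.09 over all genes.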

How the data were processed

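Tissue libraries were prepared by droplet capture with 10x Genomics 3' v3 chemistry. The authors deposited whole-number UMI counts per gene and called barcode, made with Cell Ranger on mm10 (version 2.1.1 in the submitters' notes, 3.0.2 in the file headers). Members and gene lists were chosen with earlier results of these data known. All genes of the fixed lists could be named, with up to 5 called genes per direction and comparison and up to 10 genes each way for the split by Rgs5 and Myh11, for which no library had 20 cells of both kinds. UMI counts were summed over the members of each library with at least 20 members, scaled by TMM, filtered with filterByExpr and tested with edgeR 4.0.16 (quasi-likelihood, genotype and organ pool, 8 libraries, Benjamini-Hochberg adjusted p under 0.05) in R 4.3.3, after the step had been tested on simulated data. The depth was 31487 to 512679 member UMIs per library, so low genes are imprecise. CPM scales the summed member UMIs of each library to the same total. Shares were compared by exact two-sided permutation tests in scipy 1.17.1, and binomial intervals are exact at 95%. DESeq2 1.42.0, RLE scaling, no count filter, no organ pool, 4 markers, 500 genes, at least 50 members, the study's barcode filter (over 100 and under 5000 genes, under 20% mitochondrial UMIs, within 3 median absolute deviations), thinning to 1000 UMIs, a replicate block, summing libraries of equal age and sex and leaving out each library were tried. Coordinates are from GENCODE vM21. Replicates of a group were compared and none was a duplicate (chi-square per degree of freedom 3.02 to 11.5 over genes).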

Additional observations from a re-analysis of the deposited data

Results flagged for a closer look

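Within groups of 4 to 10 libraries, the highest or lowest library of 54 measures in members was tested by Dixon's ratio of its gap to the range, which by chance marks about 1 in 20 groups, and 10 were marked. Among the 4 wt libraries, replicate 1 stood above the others in Myl9 (4834 CPM, next 2258). Replicate 2 did so in the matrix list (15647, next 7430) and in Col1a1 (2565, next 219). The 54 measures included the 8 rule markers and list sums that hold some of them. Those values chose the members. The marks on wt replicate 1 in Rgs5 (9255, next 4313) and in the summed pericyte list (13445, next 7708) are therefore a description only. Among the epididymis pools with a genotype, wt replicate 1 stood apart in the kidney list (14940 CPM, next 6210) and in Ren1 (14299, next 5790), het replicate 1 in the fibroblast list (4976, next 1709) and in Dcn (2876, next 874), and wt replicate 2 again in Col1a1 (2565, next 574). The measures overlap, since Rgs5 is in the pericyte list, Ren1 in the kidney list, Col1a1 in the matrix list and Dcn in the fibroblast list. Data outside the comparisons also held members: 23 in the unassigned library titled replicate 3 and 50 in the one titled replicate 1.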

How the results depend on the processing

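Under the alternatives, the 3 genes called for null against wt became 23 without a count filter (12 higher and 11 lower, Col1a1 and Col1a2 of the matrix list among the lower). They became 1 with the replicate block (Spag11b) and 7 with libraries of equal age and sex summed. With at least 50 members, 4 markers, the study's barcode filter, 500 genes or only members with both Rgs5 and Myh11, null replicate 2 fell under the minimum of members. The last of these was added after seeing the data. In each, null replicate 3 was the only null library, as when null replicate 2 is left out. They are therefore no separate checks of the calls. The 0 calls for het against wt became 41 without a filter and 2 with libraries summed (Igfbp6 and S100a9), and the 1 call for uterus against epididymis pools became 6 without a filter, 7 with libraries summed, and 0 with DESeq2, the replicate block, 50 members or 4 markers. Leaving out 1 library gave 0 (without null replicate 2) to 4 calls (without wt replicate 3) for null, 0 to 0 for het and 0 (without wt replicate 4) to 2 (without wt replicate 2) for the pools, and a lone library in a group is then assumed to vary like the others. DESeq2 called 4 genes for null, adding Gpx5, and without the organ pool Gpx5 took the place of Lcn2. Adjusted p ran from 1.6e-17 to 0.636 for Spag11b, 4.3e-10 to 0.729 for Defb20, 3.2e-16 to 0.992 for Lcn2 and 9.3e-43 to 1 for Xist. Leaving out libraries moved the log2 fold change over 6.27 to 9.37 for Spag11b, 4.62 to 9.99 for Defb20, 3.20 to 6.31 for Lcn2 and 11.26 to 11.83 for Xist. Of these 8 fits, Lcn2 was tested in 6 and Xist in 7, and Xist was not tested without wt replicate 4. The median of all genes moved by over 0.1 without a filter (-0.46 for null), without null replicate 3 (-0.32), without wt replicate 4 (-0.21) and for the pools with the block (0.33).

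The members' share differed by -0.225 to 0.0311 points for null, 0.0385 to 1.10 for het and -0.389 to -0.125 for uterus pools when 1 library was left out, and the sign turned for null without null replicate 2 (0.0311). The null difference was -0.152 with the study's filter, -0.217 after thinning and -0.0294 with libraries summed, and the uterus difference -0.0783 with the study's filter, -0.138 after thinning and -0.157 with libraries summed. For the Rgs5-only share these ranges were -15.8 to -6.75, -1.46 to 21.8 and -18.0 to -10.9, and the sign turned for het without het replicate 2 (-1.46). Thinning before the rule was applied turned the difference to 18.1 for null, -9.40 for het and 12.0 for uterus pools. That step also changed the members and let wt replicate 5 enter. With 4 markers the difference was -22.6 for null and 2.44 for het, with the study's filter -20.6 for null, and with 500 genes -19.3 for uterus pools. All of these are given as a description. The cause was not tested. Deviations from the group means correlated at -0.464 to 0.0887 between same-numbered libraries. Het and null have 2 libraries each, whose deviations mirror each other. For instance, wt replicate 2 gave 0.464 with het replicate 1 and -0.464 with het replicate 2. These correlations therefore cannot decide whether the numbers pair the libraries. Of the alternative values of results that answer a comparison, 115 kept direction, side of the threshold or size, 19 moved, 5 turned their sign and 1 passed a threshold that the reported value missed. This tally includes the Rgs5-only share, which is a description and gave the 1 that passed. Many share designs were too small to pass the threshold at all, so keeping its side says little there. For single called genes, 45 alternative values stayed under the adjusted threshold and 27 did not. The libraries tested held 24 to 117 members, and the 3 genes called for null (Spag11b, Lcn2 and Defb20) were counted in 35, 19 and 42 members over all libraries.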

Other observations

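In the members of the unassigned library titled replicate 3, of 610 days, Rgs5 stood at 5081 CPM, Acta2 at 3905, Notch3 at 800, Mgp at 941 and Ren1 at 408, and 73.9% of its members held both Rgs5 and Myh11. In the library titled replicate 1, of 647 days, Rgs5 stood at 4048 CPM, Acta2 at 3630, Notch3 at 796, Mgp at 729 and Ren1 at 5262, and 72.0% held both. Each of these Rgs5, Acta2, Notch3, Mgp and Ren1 levels and class shares lay between the lowest and the highest library of the 8 with a genotype and at least 20 members. The epididymal list stood at 15.4 CPM in the other passing barcodes of the library titled replicate 1, which is labelled as a uterus pool. Outside the tissue libraries, 1 barcode of the ZsGreen-sorted blood libraries and 0 of the unsorted blood libraries met the marker rule. Cdh6, a cadherin that the study counts among genes of epithelial-mesenchymal transition, was counted in 144 members at 349 CPM in het replicate 2 and 62.7 to 207 in the other 9 libraries, against 3.09 in the other passing barcodes, and was not called in any comparison of genotypes.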
